A study of Mus musculus with 16 samples.

Results

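Macrophages of adipose tissue send growth signals to the cells around them, and the messages for 10 such signals and their receptors were followed here. The genes were Tgfb1, Tgfbi, Tgfbr1, Tgfbr2, Igf1, Pdgfa, Pdgfb, Pdgfc, Vegfa and Hbegf. They were chosen by name, as fibrogenic and growth factor signals to adipose stroma together with the TGF-beta receptors, and no threshold on a measured value entered the rule. All 10 were found among the 37310 gene identifiers of the count table, and all 10 passed the filter on low counts in every comparison.

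RNA was sequenced from F4/80+ adipose tissue macrophages (ATMs) sorted from the epididymal fat of mice on a high-fat diet (HFD). The 16 libraries fell into 4 groups of 4. Mice labelled WT or IRF5-KO had received HFD for 4 weeks (short term, ST-HFD) or for 12 weeks (long term, LT-HFD). In IRF5-KO mice the floxed Irf5 gene, which encodes interferon regulatory factor 5, is deleted by Cre recombinase expressed from the Lyz2 (LysM) locus, so the deletion is limited to myeloid cells. All mice were male and began the diet as young adults, so those on LT-HFD were older at sorting than those on ST-HFD. The alleles carried by the WT mice are not given in the sources used here. All groups received HFD, so none of the comparisons has a lean control. The labels number the libraries of a group but do not name the animals, so p-values measure the spread between these samples.

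TGF-beta1, encoded by Tgfb1, is made as a latent complex and, once released, binds TGF-beta receptor 2 (Tgfbr2), which recruits and phosphorylates receptor 1 (Tgfbr1). Receptor 1 then activates SMAD proteins that switch on matrix and adhesion genes, among them Tgfbi, whose product is secreted into the matrix. Platelet-derived growth factors drive the growth and migration of mesenchymal cells, IGF-1 is a growth and survival factor for many cell types, VEGF-A drives the growth of blood vessels, and HB-EGF is shed from the cell surface to activate EGF receptors. In adipose tissue, macrophages are a known source of several of these signals to preadipocytes and vessels.

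The libraries held between 3279332 and 4958131 counts. The 3 features with the most counts took between 18.6% and 24.1% of each ST-HFD library and between 26.1% and 34.5% of each LT-HFD library. Macrophage markers were all detected in every library, and Adgre1, which encodes F4/80, averaged 610 to 833 CPM (each library's counts on a common total, scaled by the TMM method) across the 4 groups. The targeted gene did not check the labels. Irf5 averaged 239 CPM in WT and 262 CPM in IRF5-KO libraries on ST-HFD, and 192 and 227 CPM on LT-HFD, so the label IRF5-KO did not go with a lower total, which does not separate deleted exons from the rest. Lyz2, the locus that holds the Cre, was lower in every library labelled IRF5-KO than in every library labelled WT on both diets. Genotypes and durations below are those of the labels.

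The direction of any difference between durations also rests on the labels. Read by eye, a plot in the paper shows Irf5 in ATMs as higher on LT-HFD, whereas Irf5 averaged lower in the libraries labelled 12 weeks than in those labelled 4 weeks in both genotypes. The files do not settle which is right, and an exchange of the durations would turn the sign of every duration difference given here.

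The members Tgfb1, Tgfbi and Tgfbr1 carry the differences described below, and the promoter letters upstream of their starts are shown to place them in the genome. Sequences are from RefSeq on GRCm38.p6, 5′ to 3′ on the gene's strand, and cover up to 250 bases before the start, ending before the first base of the GENCODE M21 gene. Tgfb1 lies at chr7:25686752-25687001, Tgfbr1 at chr4:47352972-47353221 and Tgfbi at chr13:56609336-56609522, all on the plus strand. Capitals mark a match to an interferon regulatory factor element, read as GAAA and GAAA with any 2 bases between them and searched on both strands.
Tgfb1: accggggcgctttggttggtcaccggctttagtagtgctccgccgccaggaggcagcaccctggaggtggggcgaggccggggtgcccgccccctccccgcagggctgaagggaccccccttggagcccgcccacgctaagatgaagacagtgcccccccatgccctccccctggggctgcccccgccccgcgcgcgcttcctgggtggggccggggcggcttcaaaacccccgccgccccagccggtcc
Tgfbr1: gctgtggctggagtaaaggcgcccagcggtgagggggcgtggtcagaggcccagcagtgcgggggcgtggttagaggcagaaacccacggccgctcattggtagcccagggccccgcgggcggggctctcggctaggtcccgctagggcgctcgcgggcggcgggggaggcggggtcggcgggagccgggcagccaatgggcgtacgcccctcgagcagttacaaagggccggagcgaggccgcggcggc
Tgfbi: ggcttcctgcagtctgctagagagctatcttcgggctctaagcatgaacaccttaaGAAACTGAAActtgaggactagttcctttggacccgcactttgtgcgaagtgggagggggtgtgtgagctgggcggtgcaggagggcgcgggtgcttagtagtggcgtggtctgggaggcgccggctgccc

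The Tgfbi stretch held 1 match, as did 1 of the Vegfa promoters, and 2.98% of 32851 promoters of the same table held at least 1. Of the members, 8 had a promoter in the table, with 11 promoters between them. The shown Tgfb1 and Tgfbr1 stretches held none of the 5 motifs searched (the interferon regulatory factor element, the SMAD element CAGACA, the AP-1 element TGANTCA, the hypoxia element ACGTG and the PU.1 element GAGGAA). A further Tgfbr1 promoter of the table, not shown, held a SMAD and a PU.1 element. Both shown stretches were rich in G and C, at 75.2% for Tgfb1 and 74.8% for Tgfbr1 against a median of 52.4% over all promoters, and the Tgfbi stretch stood at 59.4%. A match is only a run of letters, and no binding was measured in these libraries.

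Levels between members were compared per kilobase of exon. Tgfbi was the most abundant, at 187 ± 62.9 CPM per kb (mean ± SD over all 16 libraries), and it lay above Igf1 in 16 of 16 libraries. Igf1 (52.3 ± 14.5), Tgfb1 (47.5 ± 11.5) and Tgfbr2 (44.0 ± 7.06 CPM per kb) followed and could not be ordered by their spread. Igf1 was above Tgfb1 in 10 libraries and Tgfb1 above Tgfbr2 in 9. Pdgfc (13.7 ± 2.80 CPM per kb) was the most abundant PDGF ligand and lay close to Tgfbr1 (12.2 ± 4.07 CPM per kb), which it exceeded in 10 libraries. Pdgfb stood at 5.64 ± 1.66, Vegfa at 3.39 ± 1.14, Pdgfa at 2.68 ± 0.906 and Hbegf at 2.40 ± 0.812 CPM per kb. Pdgfb exceeded Vegfa in 15 libraries, while Vegfa exceeded Pdgfa in 12 and Pdgfa exceeded Hbegf in 11, so the order of the last of these is loose. The least abundant had as few as 13 counts (Pdgfa), 22 counts (Hbegf) and 28 counts (Vegfa) in a library, which leaves their library values with wide counting error.

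**Figure D1:**
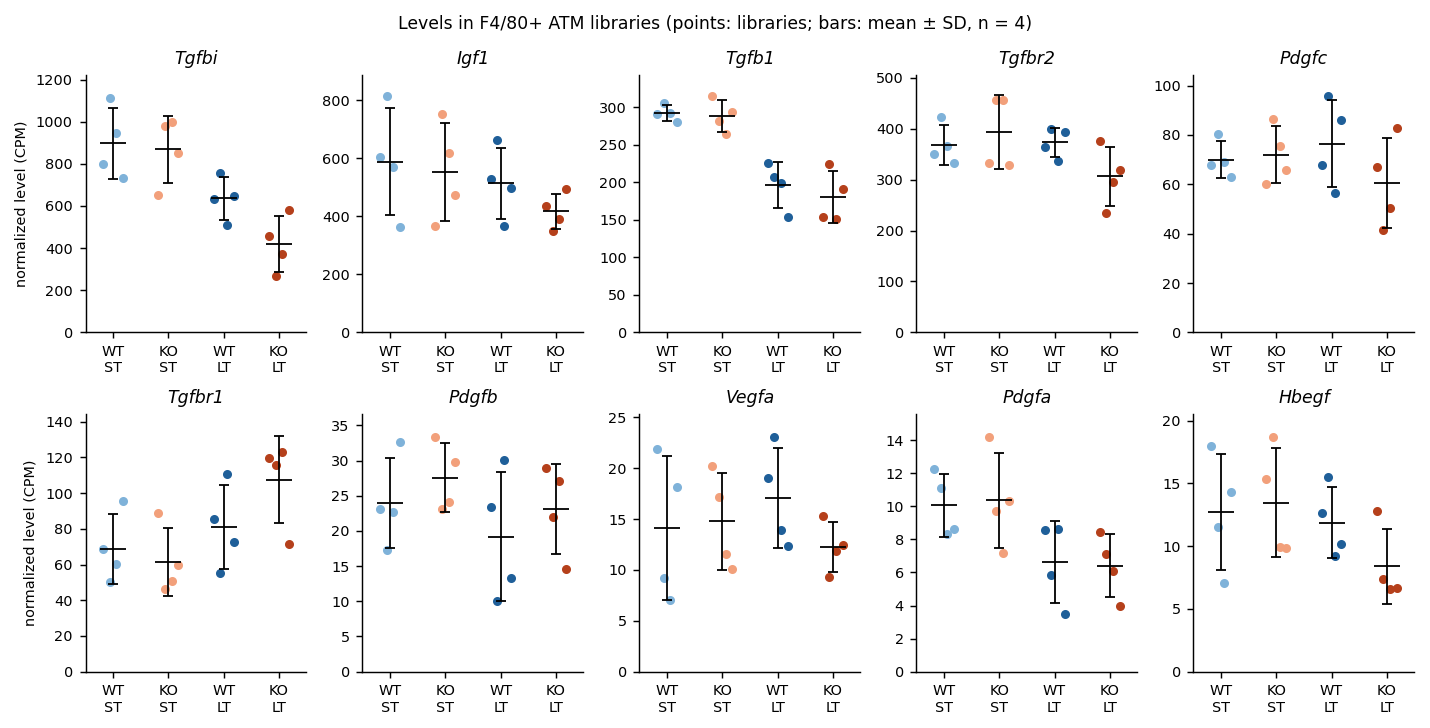
Normalized level in CPM (vertical axes, from 0) of each member in the 4 groups, with 1 point per library and bars for the mean ± SD (n = 4), in the order of their level per kb. Tgfb1 lay between 265 and 316 CPM in the 8 ST-HFD libraries and between 151 and 225 CPM in the 8 LT-HFD libraries.

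The first question was whether the members differed between genotypes on a short HFD. None of the 10 was called at an adjusted p under 0.05, against 0.00913% of the 10958 genes tested, and none had groups that did not overlap, against 1.5% of genes. Log2 fold changes (IRF5-KO over WT) ran from -0.16 for Tgfbr1 to 0.20 for Pdgfb, with a median of 0.04 and an adjusted p of 0.9998 for each in edgeR's quasi-likelihood test (Benjamini-Hochberg over all genes tested). At an unadjusted p under 0.05 there was again none, against 1.84% of genes. Tgfb1 gave the tightest of the intervals. Its libraries held 292, 306, 293 and 279.9 CPM in WT and 316, 282, 265 and 293 CPM in IRF5-KO mice, and the fold was 0.986 with a 95% interval of 0.858 to 1.13. For Vegfa the interval reached from 0.608 to 1.76, so a sizeable difference in this gene was not detectable at this depth and spread.

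On LT-HFD the fold changes spread further, and again none of the 10 was called, against 0.0182% of 10987 genes. None had groups that did not overlap, against 2.99% of genes. The fold was below 1 for 8 of the 10, and the median on the log2 scale was -0.30. An unadjusted p under 0.05 was reached by Tgfbi alone, against 5.72% of genes. Tgfbi held 634, 755, 509 and 648 CPM in WT and 457, 269, 373 and 581 CPM in IRF5-KO libraries. Only the highest IRF5-KO library reached into the WT range. The difference was -0.61 on the log2 scale (SE 0.21, adjusted p = 0.853, edgeR), which does not pass the correction. The summed level of 8 markers of resident ATMs ran from 4479 to 8338 CPM in the WT and from 2486 to 5753 CPM in the IRF5-KO libraries of that diet, and its part in the Tgfbi values was not tested.

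The receptors had values in opposite directions on LT-HFD, and neither passed. Tgfbr2, the ligand-binding receptor, held 364, 399, 337 and 393 CPM in WT and 376, 235, 296 and 319 CPM in IRF5-KO libraries, a log2 fold change of -0.29 (adjusted p = 0.853, edgeR). Tgfbr1, its signalling partner, held 85.3, 55.5, 111 and 72.5 CPM in WT and 119.7, 116, 123 and 71.5 CPM in IRF5-KO libraries, a log2 fold change of 0.40 (adjusted p = 0.853). Of the 4 IRF5-KO libraries, 3 lay above all WT libraries for Tgfbr1, and the fourth lay among the lowest. Leaving out 1 library, Tgfbr2 ran from -0.40 to -0.18 and Tgfbr1 from 0.26 to 0.60 on the log2 scale. Tgfbr2 was nearest 0 without IRF5-KO replicate 2, and Tgfbr1 without WT replicate 2. Vegfa (-0.48), Hbegf (-0.50), Pdgfc (-0.34) and Igf1 (-0.31 on the log2 scale) had negative fold changes whose 95% intervals all reached above 0. With 1 library left out these ran from -0.61 to -0.31 for Vegfa, -0.77 to -0.35 for Hbegf, -0.53 to -0.20 for Pdgfc and -0.42 to -0.16 for Igf1. The value without WT replicate 2 was the one nearest 0 for Vegfa, Hbegf and Igf1, and the value without IRF5-KO replicate 2 for Pdgfc. Of 15 immediate early and dissociation-induced genes, 14 had negative values in the same comparison, with a median of -0.39 and none called, 5 of the 15 at an unadjusted p under 0.05, and their part in these values was not tested.

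**Figure D2:**
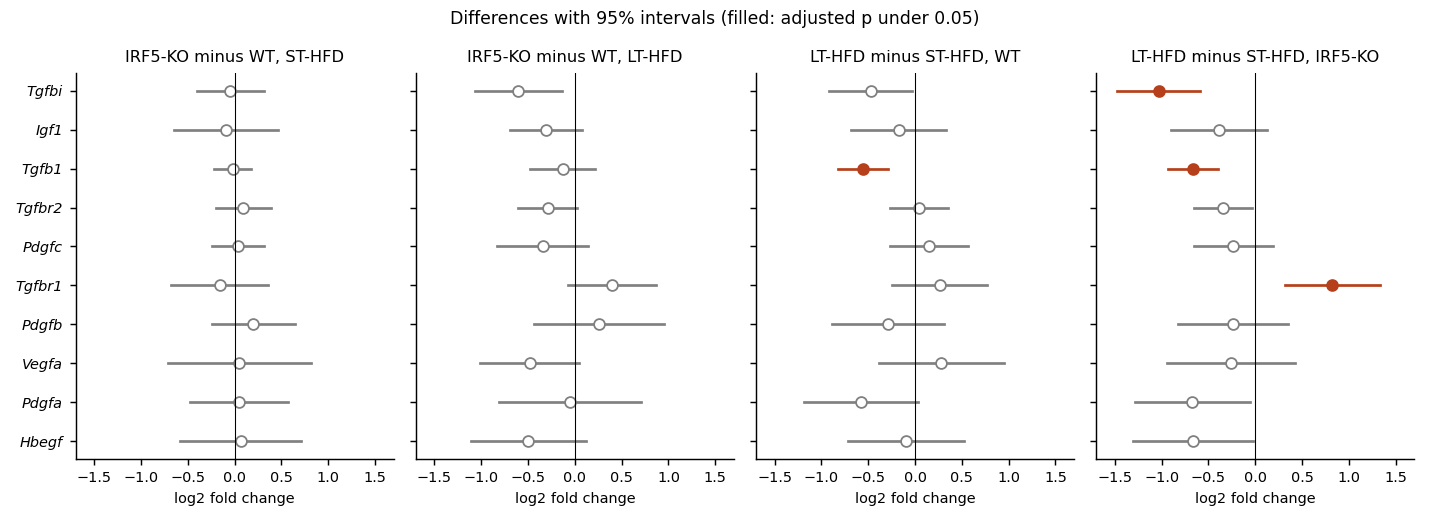
Log2 fold change (horizontal axes) of each member with its 95% interval in the 4 comparisons, filled where the adjusted p was under 0.05. Filled points are Tgfb1 in both duration panels, and Tgfbi and Tgfbr1 in the IRF5-KO duration panel.

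The next question was how the members differed between the diet durations. Tgfb1 was the member called in both genotypes, lower on LT-HFD. In WT libraries it fell from 292 ± 10.5 to 196 ± 30.5 CPM (SD, n = 4), and in IRF5-KO libraries from 289 ± 21.4 to 180.0 ± 34.5 CPM. By library the LT-HFD values were 225, 207, 199.6 and 153 CPM in WT and 154, 224, 151 and 191 CPM in IRF5-KO mice, each below all 8 ST-HFD libraries. Its differences on the log2 scale were -0.56 (SE 0.13, adjusted p = 0.00352) in WT and -0.67 (SE 0.13, adjusted p = 6.82e-04) in IRF5-KO mice, by edgeR. Both calls were lost when libraries were scaled to macrophage markers, at -0.33 (adjusted p = 0.0641) and -0.32 (adjusted p = 0.0543, edgeR), as described with the marker lists below. The summed fibroblast markers were higher in every LT-HFD library than in every ST-HFD library.

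In WT mice, Tgfb1 was the 1 called member of 10, while 25.3% of the 11560 tested genes were called, 12.1% as higher and 13.2% as lower on LT-HFD. It was also the 1 member whose groups did not overlap, against 26.1% of genes. The members' median log2 fold change was -0.14, beside 0.02 over all tested genes. Besides Tgfb1, an unadjusted p under 0.05 was reached there by Tgfbi, against 35.9% of genes, at 800.1, 1113, 946 and 732 CPM on ST-HFD, with a log2 fold change of -0.48 (adjusted p = 0.109, edgeR).

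In IRF5-KO mice 3 of 10 were called, against 32.8% of genes (15.6% higher and 17.2% lower), so the share lay near the background. Groups that did not overlap were found for 2 members, against 29.2% of genes. Tgfbi had the largest difference of the 10. It held 653, 979, 997 and 851 CPM on ST-HFD, each above the 4 LT-HFD libraries, whose highest was 581 CPM. The difference was -1.03 (SE 0.21, adjusted p = 0.00122, edgeR), a fold of 0.489 with a 95% interval of 0.359 to 0.666. Tgfbr1 rose, from 89.1, 46.4, 50.8 and 59.5 CPM on ST-HFD to the values given above, and its groups overlapped through the fourth LT-HFD library and the first ST-HFD library. The difference was 0.82 on the log2 scale (SE 0.24, adjusted p = 0.0148, edgeR). The call for Tgfbr1 was lost in 2 of the 16 fits that each left out 1 library, without IRF5-KO ST-HFD replicate 2 (0.71, adjusted p = 0.0524, edgeR) and without replicate 3 of that group (0.74, adjusted p = 0.0509, edgeR).

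The other 7 members did not pass in either genotype. In IRF5-KO mice Tgfbr2 (-0.34), Pdgfa (-0.67) and Hbegf (-0.66 on the log2 scale) reached an unadjusted p under 0.05, as did the 3 called members and 42.8% of genes, with adjusted p-values of 0.0871, 0.0867 and 0.105 by edgeR. Pdgfa, a ligand of PDGF receptor alpha, averaged 10.1 CPM in WT and 10.4 CPM in IRF5-KO libraries on ST-HFD and 6.64 and 6.40 CPM on LT-HFD. Hbegf averaged 13.5 ± 4.34 CPM on ST-HFD and 8.38 ± 2.97 CPM on LT-HFD in IRF5-KO mice, and 12.7 ± 4.59 and 11.9 ± 2.82 CPM in WT mice. Igf1 varied as much within a group as between groups, at 605, 815, 571 and 362 CPM in WT ST-HFD libraries alone. Pdgfb (10.0 to 33.4 CPM), Pdgfc (41.7 to 95.8 CPM) and Vegfa (7.07 to 23.1 CPM over the 16 libraries) overlapped between durations in both genotypes.

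Whether the duration difference itself depended on genotype was tested with the interaction. None of the 10 members was called, and neither was any of the 11560 genes (0%), of which 454 (3.93%) reached an unadjusted p under 0.05 by edgeR, and no member did. For Tgfbi the interaction was -0.56 on the log2 scale (95% interval -1.18 to 0.07, adjusted p = 0.969, edgeR). The call for Tgfbi in IRF5-KO and not in WT mice is therefore not shown to be a difference between the genotypes, and the same holds for Tgfbr1 (0.56, 95% interval -0.16 to 1.28).

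Markers of fibroblasts and preadipocytes differed with diet duration. The summed level of 12 fibroblast and preadipocyte markers lay between 1275 and 2532 CPM in the 8 ST-HFD libraries and between 5722 and 18387 CPM in the 8 LT-HFD libraries, and 12 of the 12 markers were called higher on LT-HFD in WT and 11 in IRF5-KO mice. None of them was at 0 in any library. Of the 12 macrophage markers, 2 were called lower in WT, while 5 were called lower and 2 higher in IRF5-KO mice, with medians of -0.14 and -0.35 on the log2 scale. With libraries scaled to 10 macrophage markers in place of TMM, an alternative chosen after seeing the data, Tgfb1 was no longer called in either genotype. That scaling moved the median of all genes from 0.02 to 0.25 in WT and from 0.04 to 0.39 in IRF5-KO mice. Relative to this median Tgfb1 stood at -0.58 and -0.71. Because a scaling shifts all genes together, these relative values stay near those under TMM by construction and do not test the Tgfb1 difference. The split of calls moved from 1401 higher and 1527 lower to 2757 and 774 in WT, and from 1801 and 1986 to 4325 and 931 in IRF5-KO mice. Tgfbi (-0.68, adjusted p = 0.00937) and Tgfbr1 (1.15, adjusted p = 0.00235) were called in IRF5-KO mice under it as well. The part of fibroblasts and preadipocytes in the Tgfb1 difference was not tested, and in bulk RNA fewer cells of a type and less RNA per cell cannot be told apart.

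Markers of other cells that a sort could hold were scarce beside these. Over the 16 libraries the summed level ran from 14.5 to 106 CPM for endothelial cells, 8.12 to 70.3 for pericytes and smooth muscle, 21.9 to 57.7 for adipocytes, 4.67 to 27.9 for mesothelial cells and 10.4 to 25.7 CPM for lymphocytes. It ran from 14.4 to 45.8 for neutrophils, 1.51 to 23.4 for eosinophils and mast cells, 23.0 to 148 for dendritic cells and 121 to 243 CPM for monocytes. Most genes of several of these lists fell below the filter. In WT mice the genes called between durations were 1 of 6 tested endothelial, 2 of 7 pericyte and smooth muscle, 0 of 5 adipocyte, 1 of 2 mesothelial, 0 of 2 lymphocyte, 0 of 1 neutrophil, 1 of 2 eosinophil and mast cell, 0 of 5 dendritic cell and 1 of 5 monocyte genes, beside 25.3% of all genes. In IRF5-KO mice they were 1 of 6, 2 of 7, 1 of 5, 1 of 2, 0 of 2, 1 of 1, 1 of 2, 1 of 5 and 2 of 5 in the same order, beside 32.8%. Between genotypes the called marker was Lyz2, on LT-HFD.

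**Figure D3:**
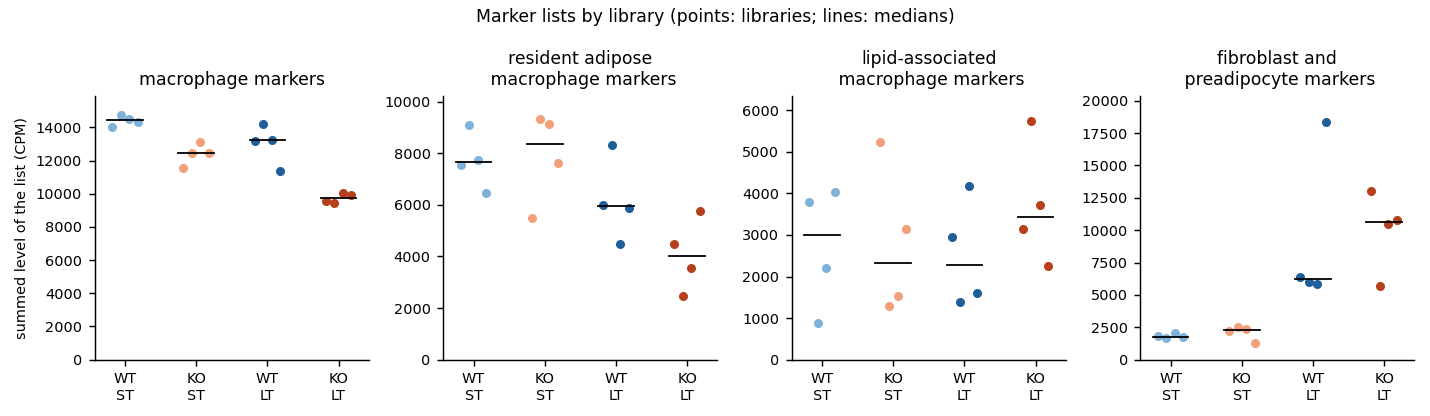
Summed level in CPM (vertical axes, from 0) of 4 marker lists in each library, with lines at group medians. The macrophage list includes Lyz2, the locus that holds the Cre. It averaged 3446 CPM in WT and 1762 CPM in IRF5-KO libraries on ST-HFD, and 3638 and 1772 CPM on LT-HFD. The macrophage sums of the genotypes include this difference. Fibroblast and preadipocyte markers did not overlap between durations, at 1275 to 2532 CPM on ST-HFD and 5722 to 18387 CPM on LT-HFD.

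Markers of macrophage states were read in the same way. On LT-HFD in IRF5-KO mice, 6 of 8 resident ATM markers were called lower, among them Cd163, Lyve1 and Timd4, and 3 of 8 lipid-associated macrophage markers, Ctsk, Cd9 and Trem2, were called higher, beside 32.8% of all genes called. In WT mice 2 of the 8 resident markers were called lower and none of the 8 lipid-associated markers was called, beside 25.3% of all genes, so the WT counts lay at or under the background. The summed resident markers ran from 5477 to 9315 CPM in IRF5-KO libraries on ST-HFD and from 2486 to 5753 CPM on LT-HFD, beside 6456 to 9108 and 4479 to 8338 CPM in WT libraries. Mrc1 is on both the macrophage and the resident list. The part of these states in the Tgfbi and Tgfbr1 differences was not tested.

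Between replicates of a group, the members split into sets that varied together. As a description over 16 libraries, with log2 levels centred within each group, Tgfbi went with Pdgfc (Pearson's r = 0.918), Tgfbr2 (0.816) and Igf1 (0.807). Tgfbr1 went with Pdgfb (0.903) and opposite to Igf1 (-0.902) and Tgfbi (-0.827). Vegfa and Hbegf formed a pair of their own (0.863). These points share libraries, depth and scaling, and r carries no test here.

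**Figure D4:**
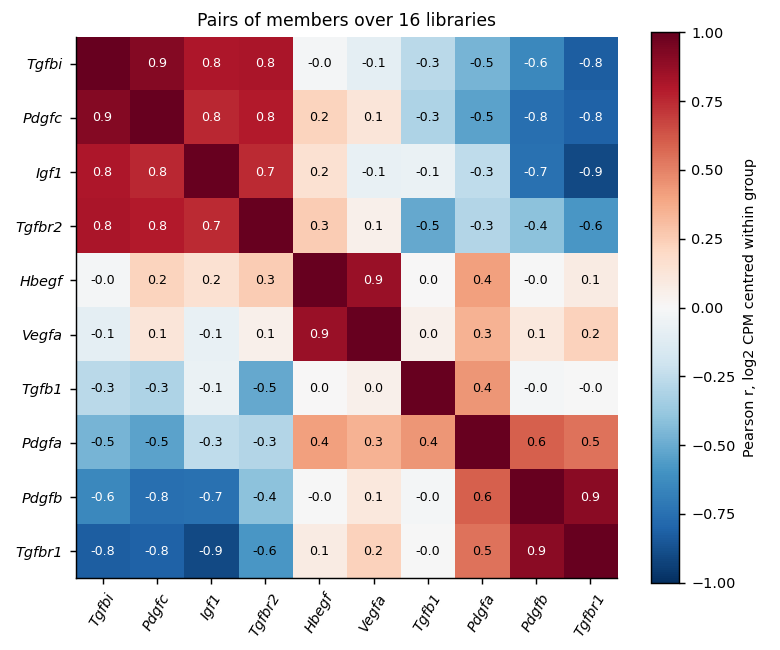
Pearson's r between members over 16 libraries, from log2 CPM centred within group (colour and numbers). Tgfbi, Pdgfc, Igf1 and Tgfbr2 form a positive block, Tgfbr1 and Pdgfb another of opposite sign to it, and Vegfa pairs with Hbegf.

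The same split followed the macrophage states. Centred within group, Tgfbi had r = 0.971 with the summed resident markers and -0.862 with the lipid-associated ones, and Pdgfc had 0.936 and -0.821. Tgfbr1 ran the other way, at -0.837 and 0.873, as did Pdgfb at -0.678 and 0.754. In IRF5-KO ST-HFD mice, replicate 1 had the lowest Tgfbi (653 CPM) and the highest Tgfbr1 (89.1 CPM), and it held the group's lowest resident sum (5477 CPM) and highest lipid-associated sum (5238 CPM). On LT-HFD the lowest Tgfbi of all libraries, 269 CPM in IRF5-KO replicate 2, stood beside the lowest resident sum, 2486 CPM. Tgfb1 followed neither state (-0.243 and 0.281) and ran opposite to the fibroblast markers (-0.765). With the summed immediate early genes, which cell dissociation is known to induce, r was 0.651 for Tgfbr2, 0.634 for Hbegf, 0.511 for Vegfa, 0.505 for Pdgfc and 0.489 for Igf1.

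**Figure D5:**
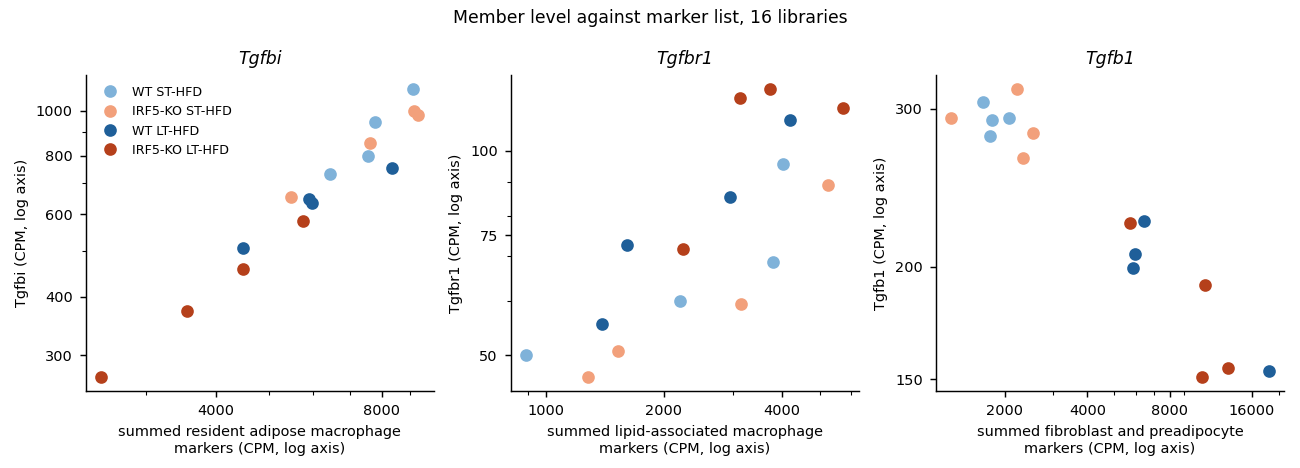
Level of Tgfbi, Tgfbr1 and Tgfb1 (vertical log axes, CPM) against the summed level of a marker list (horizontal log axes, CPM), 1 point per library, coloured by group. Tgfbi was higher where the resident markers were higher, from 269 CPM at 2486 CPM to 1113 CPM at 9108 CPM.

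The genes most like each member were taken out of 9764 with enough counts, over the 16 libraries, first across all groups and then with each group centred on its mean. Tgfb1 was most like Laptm5, which encodes a lysosomal membrane protein of blood cells, in both (r = 0.989 and 0.971). Tgfbi was most like the scavenger receptor gene Cd163 across groups (0.988), which is 1 of the 8 resident markers, and most like Nhsl2 when centred (0.985). Igf1 was most like Ang in both (0.929 and 0.957), which encodes the ribonuclease angiogenin. Hbegf was most like the transcription factor genes Ets2 (0.871) and Nr4a1 (0.854) across groups, and like Ccnyl1 (0.871) and Vegfa (0.863) when centred. Tgfbr1 was most like Asph across groups (0.960) and Stap1 when centred (0.964).

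Of 149 other genes of these pathways in the table, 124 were tested between durations. In WT mice 31 were called higher and 8 lower on LT-HFD, or 31.5% beside 25.3% of all tested genes, and in IRF5-KO mice 35 and 16, or 41.1% beside 32.8%. The counts per list that follow are to be read against these shares of all genes. Between genotypes none was called on either diet by edgeR, with 0 of 115 at an unadjusted p under 0.05 on ST-HFD and 13 of 123 on LT-HFD (5.72% of all genes), and none was called for the interaction, with 5 of 124 at an unadjusted p under 0.05.

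Of the pathway lists, the PDGF axis had the highest median between durations, in both genotypes. In WT mice 5 of its 10 genes rose on LT-HFD and 1 fell, and in IRF5-KO mice 6 rose and 1 fell, with medians of 1.61 and 1.76 on the log2 scale. Pdgfra and Pdgfrb, the PDGF receptors typical of mesenchymal cells, rose by 3.45 and 3.25 in WT mice (adjusted p = 2.04e-05 and 3.71e-05, edgeR) and by 3.22 and 2.95 in IRF5-KO mice. Both are also on the fibroblast marker list, whose members moved the same way. Pdgfra averaged 14.3 CPM in WT and 18.3 CPM in IRF5-KO libraries on ST-HFD and 153 and 169 CPM on LT-HFD, while the ligands Pdgfa, Pdgfb and Pdgfc did not pass.

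In the IGF axis 8 of 17 tested genes rose and none fell in WT mice, and 7 rose and 1 fell in IRF5-KO mice. Htra3, a secreted protease, rose by 3.13 in WT and 3.10 in IRF5-KO mice on the log2 scale, and Htra1, a related protease, rose by 2.86 and 3.10. Igf1 itself did not pass in either genotype. In the VEGF axis 2 of 8 tested genes rose and 2 fell in WT mice, and 1 rose and 2 fell in IRF5-KO mice, with medians of 0.07 and -0.22 on the log2 scale. Vegfd, a ligand of lymphatic vessel growth, rose by 3.82 in WT mice, from 2.66 to 37.1 CPM, and by 3.42 in IRF5-KO mice. Nrp2, a VEGF and semaphorin co-receptor, fell by 0.47 in WT (adjusted p = 0.00716) and by 0.68 in IRF5-KO mice (adjusted p = 2.99e-04, edgeR). The 12 fibroblast and preadipocyte markers had medians of 2.69 in WT and 2.71 in IRF5-KO mice in the same comparisons, and their part in the values of Htra3, Htra1 and Vegfd was not tested.

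Among 12 TGF-beta response genes, 4 rose and 1 fell in WT mice, and 4 rose and 2 fell in IRF5-KO mice, Tgfbi being among the latter. Fn1, which encodes fibronectin, fell by 1.28 in WT (adjusted p = 1.69e-04) and by 1.77 in IRF5-KO mice (adjusted p = 5.85e-06, edgeR), from 1573 to 638 CPM and from 1594 to 463 CPM. Id3, an inhibitor of helix-loop-helix factors, rose by 2.14 in WT and 2.52 in IRF5-KO mice. The list thus did not move one way, and the part of the fibroblast and preadipocyte markers, with medians of 2.69 and 2.71 in the same comparisons, in the genes that rose was not tested. Of the brakes and partners of the pathway, Ski, a SMAD co-repressor, fell by 0.72 in WT and 0.93 in IRF5-KO mice, and Trim33, a SMAD4 ubiquitin ligase, fell by 0.75 and 0.76 on the log2 scale. Eng, the TGF-beta co-receptor endoglin, fell by 0.60 in WT and 0.70 in IRF5-KO mice. Of 14 tested TGF-beta ligands, activators and binding proteins, 2 rose in each genotype, while 1 fell in WT and 2 in IRF5-KO mice, Tgfb1 among them. Of 13 receptors and transducers, 1 rose and 2 fell in WT mice, and 5 rose and 3 fell in IRF5-KO mice, with Tgfbr1 among those that rose. Of 11 tested feedback genes and inhibitors, 1 rose and 3 fell in WT mice, and 2 fell in IRF5-KO mice.

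Of 11 tested genes of the HB-EGF and EGF receptor axis, 2 rose in WT mice, and 3 rose and 1 fell in IRF5-KO mice. Of 14 tested genes listed as other macrophage signals to stroma, 2 rose in WT mice, and 4 rose and 1 fell in IRF5-KO mice. Mdk and Wnt5a were those that rose in both. Mdk averaged 1.32 CPM in WT and 0.68 CPM in IRF5-KO libraries on ST-HFD, and 6.15 and 12.4 CPM on LT-HFD. The part of the fibroblast and preadipocyte markers in these values was not tested. Of 11 tested hypoxia response genes, 3 rose in WT and 4 in IRF5-KO mice and none fell in either, while Vegfa, itself a target of hypoxia-inducible factors, did not pass. Of 15 immediate early genes, 1 rose in WT mice and 4 fell in IRF5-KO mice. Library totals, the share of the top features and the age of the mice differed with diet duration, and the labels name no batch, so duration and anything handled with it cannot be told apart.

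Each member's gene and counting have their own limits. On GRCm38, Tgfb1 (ENSMUSG00000002603) spans chr7:25687002-25705077, Tgfbi (ENSMUSG00000035493) chr13:56609523-56639562 and Tgfbr1 (ENSMUSG00000007613) chr4:47353222-47414931, all on the plus strand, and no other annotated gene overlaps them. Igf1, Pdgfa, Pdgfb and Pdgfc each overlap an annotated gene on the opposite strand (Igf1os, 6330403L08Rik, Gm41361 and Gm16000). The library kit keeps strand, but the strand setting of the counting is not given in the sources used here, so reads of these 4 and of their partners may not be separated. Pdgfb also overlaps Mir7213 on its own strand, which a strand setting does not separate.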

How the data were processed

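Stranded total RNA libraries of F4/80+ ATMs were sequenced in 16 samples, 4 per genotype and diet duration. The authors deposited whole-number counts of reads per gene on mm10, not normalized. The submitters' processing notes name fastp 0.19.11 and STAR 2.7.3a. The annotation release and strand setting are not given in the sources used here. Library totals of 3279332 to 4958131 counts limit precision for genes with few counts. No 2 libraries of a group were duplicates.

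The tests were run with edgeR 4.0.16 under R 4.3.3, using filterByExpr, TMM and the quasi-likelihood test with Benjamini-Hochberg adjustment over all tested genes, called at an adjusted p under 0.05. Genotypes were compared within each duration (8 libraries), and durations and the interaction were fitted over 16 libraries. CPM used TMM factors, and levels per kb used exon lengths of GENCODE M21, matched for 32620 of 37310 identifiers. Likeness was Pearson's r of log2(CPM + 0.5) over genes averaging 20 or more counts. Scripts were tested on simulated data.

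The members, 11 pathway lists and 13 marker lists were chosen with earlier results of these data known. Pathway genes named with values were up to 4 called genes per direction and comparison with the smallest p. Others named were chosen after their values were seen. On ST-HFD, libraries of the same number in both genotypes deviated together (r = 0.368, 0.483, 0.179 and 0.298), a pairing read from the data and not from the labels. Libraries of different numbers correlated by up to 0.466, and number 4 did not correlate best with its own number. The main tests had no block, and a fit with the replicate block was an alternative. Alternatives were DESeq2 1.42.0, other scalings, no filter, a replicate block, other sets of libraries and leaving out each library.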

Additional observations from a re-analysis of the deposited data

Results flagged for a closer look

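Of 40 groups of 4 libraries checked (10 members in 4 groups), 2 held a library far from the other 3 by Dixon's test, and chance alone flags about 1 in 20. In IRF5-KO LT-HFD mice, Tgfbr1 was 71.5 CPM in replicate 4 against 116 to 123 CPM in the others, a gap of 0.883 of the group's range on the log2 scale. In the same group, Hbegf was 12.8 CPM in replicate 1 against 6.62 to 7.40 CPM in the others, a gap of 0.831 of the range. Without that replicate, Hbegf stood at -0.95 on the log2 scale between durations in IRF5-KO mice (adjusted p = 0.0332, edgeR), and was then called.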

How the results depend on the processing

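Over 1000 member values under alternative settings, 949 kept their direction and side of the threshold, 4 lost a call, 5 gained one and 42 changed sign. Tgfb1 kept its call in all 16 fits that each left out 1 library, in both genotypes, as did Tgfbi in IRF5-KO mice. Scaled to macrophage markers (chosen after seeing the data), 0 members were called in WT mice (Tgfb1 at -0.33), and Tgfb1 at -0.32 was not called in IRF5-KO mice. Signs then turned for Igf1 (0.060) and Hbegf (0.12) in WT, and for Tgfbr2 (0.0085), Pdgfb (0.10), Pdgfc (0.12) and Vegfa (0.075) in IRF5-KO mice, the construction of that scaling raising all genes. With the replicate block, 5 members were called between durations in IRF5-KO mice, Pdgfa (-0.69) and Hbegf (-0.66) added, although durations shared only a number; the block changed no other member call. Genes called between genotypes on ST-HFD were 1, and 2 with no filter, with DESeq2, with the replicate block or over 16 libraries. On LT-HFD they were 2, and 6 with no filter or DESeq2, 0 with the replicate block, and 0 to 2 with 1 library left out (2 without WT replicate 4, 1 without IRF5-KO replicate 2 and 0 without any other); the cause was not tested. Members called between durations in IRF5-KO mice were 2 to 5 with 1 library left out, 5 being without IRF5-KO LT-HFD replicate 1. Tgfbr2 gained a call in 2 of these 16 fits, with a lowest adjusted p of 0.0301 (edgeR), and Hbegf in 1.

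Leaving out 1 library turned the sign of values near 0. On ST-HFD the genotype values ran from -0.067 to 0.028 for Tgfb1, -0.14 to 0.065 for Tgfbi, -0.40 to 0.044 for Tgfbr1, -0.28 to 0.10 for Igf1, -0.15 to 0.19 for Pdgfa, -0.062 to 0.11 for Pdgfc, -0.16 to 0.35 for Vegfa and -0.13 to 0.28 for Hbegf. On LT-HFD Pdgfa ran from -0.27 to 0.12. Between durations in WT mice Tgfbr2 ran from -0.0021 to 0.12, Igf1 from -0.35 to 0.026 and Hbegf from -0.29 to 0.12, and for the interaction Pdgfa ran from -0.31 to 0.088 and Pdgfb from -0.14 to 0.35. Depth limits Pdgfa, Hbegf and Vegfa most, with 13, 22 and 28 counts in their lowest libraries.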

Other observations

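The ratio of Tgfbr1 to Tgfbr2 within a library, a measure chosen after the values were seen and so given without a test, ran from 0.118 to 0.288 in WT ST-HFD, 0.102 to 0.268 in IRF5-KO ST-HFD, 0.139 to 0.329 in WT LT-HFD and 0.224 to 0.493 in IRF5-KO LT-HFD libraries, as CPM over CPM. The medians were 0.180, 0.146, 0.209 and 0.368. The highest values lay in IRF5-KO LT-HFD libraries, and every group overlapped each of the others. The ratio does not depend on the scaling of a library.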
